A study of Mus musculus with 6 samples.

Results

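The 41 genes described here are enzymes of glycolysis, transporters that carry glucose in and lactate out, and targets of the hypoxia-inducible factor HIF. They were chosen by name as textbook members of these pathways, with earlier results of these data known. Of the 41 genes, 37 had at least 1 probe set named for that gene alone and bright enough to test, out of 13608 genes tested on the arrays. Gapdh and Bnip3l had only probe sets that the annotation shares with other symbols, apart from the array's own Gapdh control probe sets, and Gpi1 and Eno1 had no probe set named for them in the annotation used here. No member was lost to the filter on dim signal.

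Gene expression was measured on 6 Affymetrix arrays of mouse embryoid bodies, balls of differentiating cells grown in suspension from the D3 embryonic stem cell line, all collected at 10 days. The 3 RA samples were bodies that had incorporated gelatin-coated microspheres loaded with retinoic acid (RA), the vitamin A metabolite that activates retinoic acid receptors. The 3 control samples were bodies with gelatin-coated microspheres that carried CellTracker Red dye in place of RA, and both groups were grown in rotary culture without LIF, the cytokine that keeps stem cells undifferentiated. The RA dose of the samples is not given, and the study's design text mentions several microsphere ratios and rotary speeds without assigning them to samples. Each array read the RNA of whole bodies of a single cell line, so fewer cells of a type and less RNA per cell cannot be told apart. Nothing in the labels says that the triplicates came from separate cultures. Each p-value therefore judges the group difference only against the spread among these samples, and that spread may be technical.

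Glycolysis splits glucose to pyruvate. When pyruvate is turned to lactate by lactate dehydrogenase, the pathway can run without oxygen, and proliferating and pluripotent cells use it in this way even where oxygen is present. HIF is a transcription factor whose alpha subunit is marked for destruction by prolyl hydroxylases when oxygen is available. When oxygen is low, the stable alpha subunit pairs with ARNT and raises most glycolytic enzymes, glucose and lactate transporters, pyruvate dehydrogenase kinase and genes such as Bnip3 and Vegfa. Most steps have several isoforms, encoded by separate genes with different tissues of expression.

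HIF binds short sites whose core reads ACGTG or GCGTG, so the sequences upstream of the genes are shown for the 3 isoform pairs in which one gene was higher and the other lower with RA: Hk2 and Hk1, Ldha and Ldhb, P4ha1 and P4ha2. Each line holds the 250 bases before an annotated start (RefSeq, GRCm38.p6, 5′ to 3′ on the gene's strand), and capitals mark ACGTG or GCGTG on either strand. Hk2 lies at chr6:82774455-82774704 (minus strand), and Hk1 has starts at chr10:62340422-62340671 and chr10:62379909-62380158 (minus strand). Ldha has starts at chr7:46845554-46845803 and chr7:46846832-46847081 (plus strand), and Ldhb lies at chr6:142507958-142508207 (minus strand). P4ha1 lies at chr10:59323046-59323295 and P4ha2 at chr11:54100674-54100923, both on the plus strand.
Hk2: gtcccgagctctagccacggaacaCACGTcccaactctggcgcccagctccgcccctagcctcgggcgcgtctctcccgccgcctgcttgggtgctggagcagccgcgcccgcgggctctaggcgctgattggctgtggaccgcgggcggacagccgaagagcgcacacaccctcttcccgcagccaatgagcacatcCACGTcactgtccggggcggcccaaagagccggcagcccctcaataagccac
Hk1, start at the lower coordinate: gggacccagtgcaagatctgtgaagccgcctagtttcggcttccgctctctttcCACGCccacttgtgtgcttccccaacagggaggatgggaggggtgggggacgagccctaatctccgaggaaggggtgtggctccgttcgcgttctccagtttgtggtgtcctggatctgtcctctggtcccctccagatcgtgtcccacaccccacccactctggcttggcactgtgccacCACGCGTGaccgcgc
Hk1, start at the higher coordinate: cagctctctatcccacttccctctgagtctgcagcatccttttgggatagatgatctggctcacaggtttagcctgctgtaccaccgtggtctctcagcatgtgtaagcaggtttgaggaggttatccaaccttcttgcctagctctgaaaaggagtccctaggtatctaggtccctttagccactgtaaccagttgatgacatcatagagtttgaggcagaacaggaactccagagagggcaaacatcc
Ldha, start at the lower coordinate: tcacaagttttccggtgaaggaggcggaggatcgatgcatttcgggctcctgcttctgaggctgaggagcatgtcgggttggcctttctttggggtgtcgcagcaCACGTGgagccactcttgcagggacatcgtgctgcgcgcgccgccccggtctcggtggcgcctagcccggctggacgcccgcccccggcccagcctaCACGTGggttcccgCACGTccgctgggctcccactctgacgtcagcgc
Ldha, start at the higher coordinate: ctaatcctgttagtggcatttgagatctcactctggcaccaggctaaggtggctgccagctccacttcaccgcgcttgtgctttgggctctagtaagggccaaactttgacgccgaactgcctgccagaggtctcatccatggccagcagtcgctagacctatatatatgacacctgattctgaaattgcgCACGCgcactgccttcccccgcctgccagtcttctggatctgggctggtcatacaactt
Ldhb: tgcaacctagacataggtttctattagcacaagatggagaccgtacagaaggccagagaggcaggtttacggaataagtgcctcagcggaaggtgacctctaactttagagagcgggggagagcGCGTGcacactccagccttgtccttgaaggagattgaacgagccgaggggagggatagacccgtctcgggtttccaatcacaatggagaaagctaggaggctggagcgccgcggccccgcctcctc
P4ha1: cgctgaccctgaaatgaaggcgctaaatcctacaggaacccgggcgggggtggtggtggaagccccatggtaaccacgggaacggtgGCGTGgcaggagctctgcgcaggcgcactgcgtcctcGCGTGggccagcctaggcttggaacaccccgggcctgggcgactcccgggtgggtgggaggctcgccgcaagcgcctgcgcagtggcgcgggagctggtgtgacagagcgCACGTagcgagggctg
P4ha2: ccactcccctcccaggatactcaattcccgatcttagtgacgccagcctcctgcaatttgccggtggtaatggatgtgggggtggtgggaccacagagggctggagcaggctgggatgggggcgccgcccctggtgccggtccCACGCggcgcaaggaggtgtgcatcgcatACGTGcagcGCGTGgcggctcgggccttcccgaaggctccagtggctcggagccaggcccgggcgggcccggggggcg
The Ldha start at the lower coordinate carries CACGTG 2 times, a palindrome that reads ACGTG on each strand and is therefore found on both.

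A search of the full 300-base windows, which run to 50 bases past the start, found RefSeq entries for 38 of the 41 genes, the others being Bnip3l, Ndrg1 and Slc2a3. The letters ACGTG or their reverse complement stood in 61.1% of the 36 windows of genes called higher with RA, 2 of the 5 windows of genes called lower and 63.6% of the 11 windows of genes not called. Among the 13944 windows of all genes tested the share was 24.3%, and among all 32851 windows in the RefSeq table it was 19.6%. GCGTG or its reverse complement was present in 58.3% of the windows of genes called higher, 3 of the 5 windows of genes called lower and 54.5% of the windows of genes not called, against 47.7% of the windows of all genes tested and 32.4% of all windows. Some genes have several overlapping windows, and a match to these letters does not show a bound site.

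Glycolysis and hypoxia genes were predominantly higher in bodies with RA microspheres. Of the 37 genes tested, 26 (70.3%) were higher with RA and 4 (10.8%) were lower in limma at an adjusted p under 0.05 over all genes, whereas 14.3% of all 13608 genes were called higher and 15.6% lower. The genes' median log2 fold change, RA minus control, was 0.90, and that of all genes tested was 0.01. A rise of at least 2-fold was called for 17 of the 37 genes and for 3.04% of all genes, and a fall of at least 2-fold for 1 gene (Eno2) and for 4.93% of all genes. In 27 genes all 3 RA arrays lay above all 3 control arrays, as in 21.8% of all genes, and in 5 genes they all lay below, as in 22.2%. The genes called higher ranged from 1.42-fold to 4.01-fold, with limma adjusted p from 1.05e-08 to 0.0226. The predominance holds for the genes listed. Of 18 other glycolytic and gluconeogenic genes outside the 41, 5.56% were higher and 11.1% lower. Of 30 other HIF targets, 23.3% were higher and 3.33% lower.

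**Figure D1:**
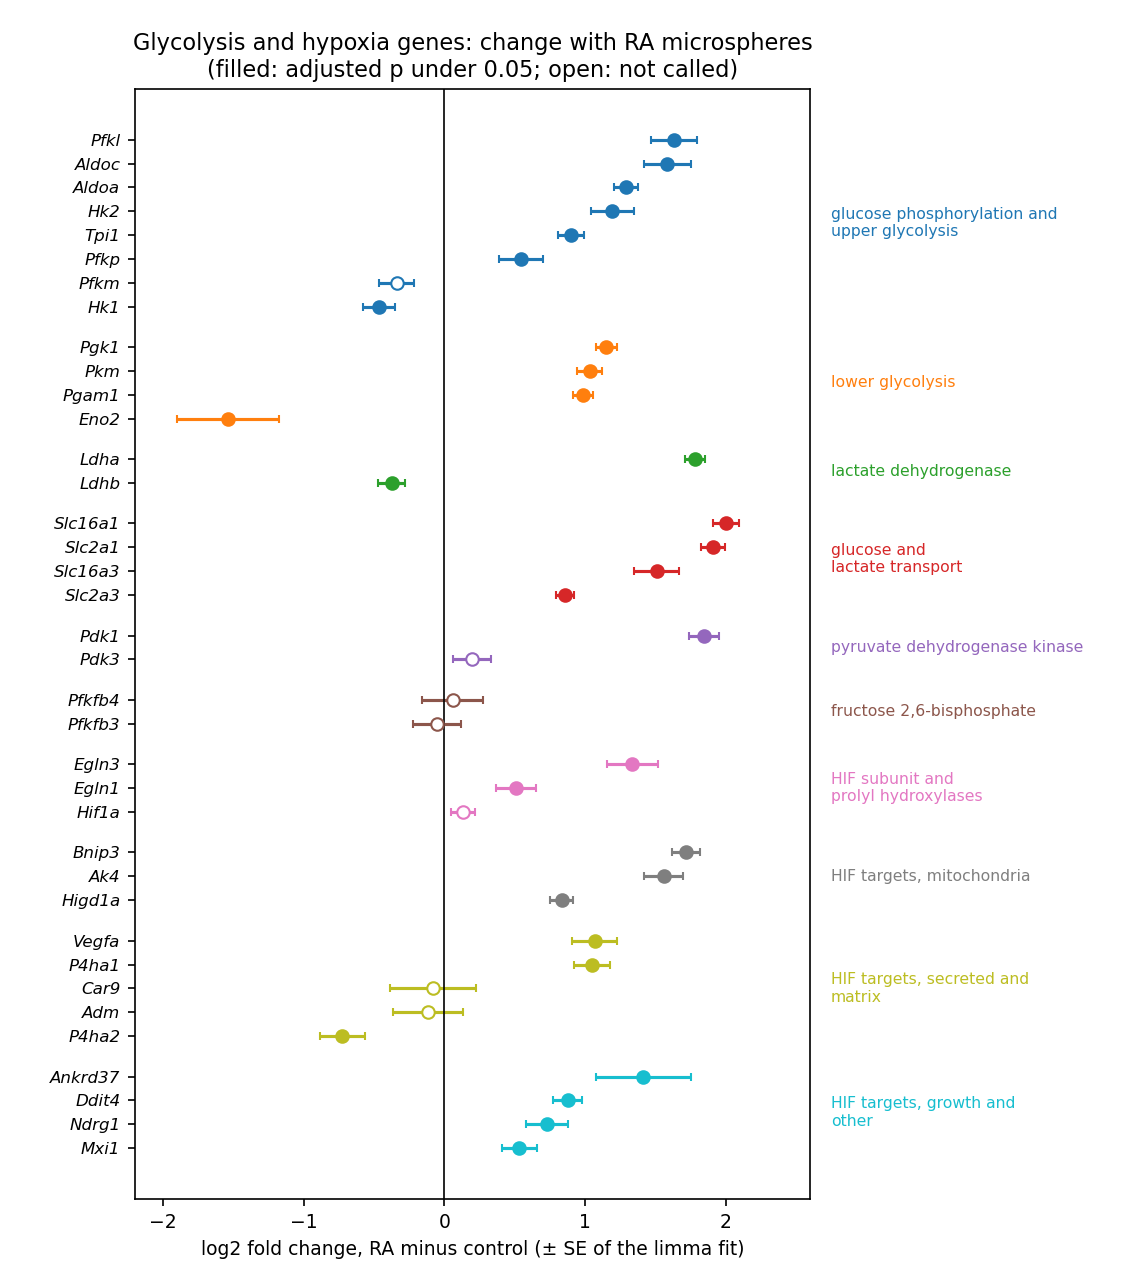
Log2 fold change, RA minus control, of the 37 genes tested, grouped by role and with the SE of the limma fit as the bar. Filled points passed an adjusted p of 0.05 over all genes, and 26 of them lie right of 0 and 4 left of it.

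After normalization the mean level of these genes was close within each group, while the deposited signal and a measure of RNA integrity were not. The mean normalized log2 level of the 37 genes was 9.58, 9.56 and 9.50 on RA arrays 1, 2 and 3, against 8.76, 8.76 and 8.80 on control arrays 1, 2 and 3. Before scaling, the trimmed mean of the deposited signal was 170 to 191 on RA arrays and 108 to 172 on control arrays, with control array 3 at 108. The ratio of the 3-prime to the 5-prime Gapdh control probe set, a sign of RNA integrity, was 34.0, 3.07 and 4.70 on RA arrays 1, 2 and 3, against 4.39, 3.06 and 4.74 on control arrays 1, 2 and 3. The same ratio for actin was 4.35 to 7.42 on RA arrays and 3.35 to 4.24 on control arrays, without overlap. The part of RNA integrity in the group differences was not tested. Without RA array 1, 24 of the genes were higher and 4 lower, and with both RA array 1 and control array 3 left out 25 were higher and 3 lower. Without any scaling between arrays 26 were higher and 1 lower, while the median of all genes was 0.26 and that of the 37 genes 1.27, and 72.9% of all calls were higher instead of 47.8%.

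The bodies of the 2 groups also differed in the cells they held markers of. For comparison, 14.3% of all genes were called higher and 15.6% lower. All 10 epiblast markers tested were higher with RA, among them Dnmt3b, Fgf5 and Pou3f1 at 14.8, 14.1 and 13.4 times. Their summed signal on the linear normalized scale, which for each list covers every gene with a probe set, was 12304 to 13112 on RA arrays and 1578 to 1791 on control arrays. Of 10 heart muscle markers 8 were lower, with a summed signal of 592 to 765 on RA arrays against 12771 to 19360 on control arrays. Of 8 embryonic red cell markers tested 4 were lower, with a sum of 564 to 673 on RA arrays against 15467 to 17586 on control arrays, and Hba-a1 lay below the filter level in both groups. Of 6 endothelial markers tested 5 were lower (sum 241 to 434 on RA arrays, 1133 to 1375 on control arrays; Pecam1 below the filter level in both groups). Of 10 visceral endoderm markers 5 were higher and 5 lower (sum 10302 to 11386 on RA arrays, 29383 to 30732 on control arrays). Ttr, Afp and Rbp4, the brightest of them on control arrays, were 2.31, 6.45 and 10.5 times lower with RA and weigh most in the control sum. Among the 5 higher, Cubn and Amn rose 9.29 and 7.65 times. Of 7 neuronal markers tested 2 were higher, Stmn2 6.60 times and Nefl 1.95 times. The 5 not called had log2 fold changes from -0.60 (Gap43) to 0.59 (Snap25). The sum of all 10 was 1573 to 1748 on RA arrays, where Stmn2 was the brightest, against 577 to 726 on control arrays. This sum includes Map2, Elavl3 and Rbfox3, which were too dim to pass the filter. Of 8 stress and cell death genes 0 were higher and 4 lower, with a sum of 6032 to 6629 on RA arrays against 8483 to 9214 on control arrays. The part of these cell types in the changes of glycolysis and hypoxia genes was not tested.

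All 4 transporters were higher with RA. Slc2a1 (GLUT1), the widely expressed glucose carrier, had log2 levels of 13.15, 12.81 and 12.94 on the RA arrays, against 11.03, 11.09 and 11.03 on the control arrays. Its lowest RA array lay far above its highest control array, and the change was 3.76-fold (log2 fold change 1.91 ± 0.09, SE, limma adjusted p = 3.67e-08). Slc16a1 (MCT1), a carrier of lactate and other monocarboxylates, showed the largest change among the 37 genes, with log2 levels of 12.24, 11.99 and 12.20 on RA arrays and 10.13, 10.04 and 10.25 on control arrays. That is 4.01-fold higher with RA (limma adjusted p = 3.50e-08). Slc16a3 (MCT4), a lactate exporter of glycolytic cells, was 2.85 times higher, with RA arrays at 8.60 to 8.91 and control arrays at 7.02 to 7.52. Slc2a3 (GLUT3), a high-affinity glucose carrier, was 1.81 times higher, with all RA arrays between 12.98 and 13.01 and control arrays between 12.07 and 12.23. Of its 3 probe sets that passed the filter, 2 were called higher. The dimmest gave a log2 fold change of 1.01, with overlapping groups, and was not called.

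Of 8 genes of the first steps of glycolysis, 6 were higher with RA, Hk1 was lower and Pfkm did not pass. Hexokinase traps glucose in the cell by phosphorylation. Hk2, an isoform that HIF induces, had log2 levels of 9.43, 9.65 and 9.41 on RA arrays, against 8.65, 8.18 and 8.07 on control arrays. Hk1, the broadly expressed isoform, had 8.55, 8.61 and 8.31 on RA arrays, against 8.89, 8.96 and 9.01 on control arrays. The groups did not overlap for either gene, and the directions were opposite: Hk2 was 2.29 times higher (limma adjusted p = 0.000120) and Hk1 1.38 times lower (limma adjusted p = 0.0103) with RA. The call of Hk1 was lost without RA array 3 (log2 fold change -0.37) and without scaling (-0.20).

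Phosphofructokinase catalyses the committed step. Pfkl, the liver-type subunit, was at 10.15, 10.66 and 10.55 on RA arrays, against 8.94, 8.47 and 9.05 on control arrays, a 3.10-fold rise with RA (limma adjusted p = 2.19e-05). The mean of its 3 probe sets gave a log2 fold change of 1.01 in place of 1.63. The dimmest of the 3 gave 0.27, with overlapping groups, and was not called. Pfkp, the platelet-type subunit, was 1.46 times higher (7.64 to 7.84 on RA arrays, 7.05 to 7.31 on control arrays, limma adjusted p = 0.0226). This call was lost without RA array 1 (0.50), RA array 2 (0.55), control array 1 (0.47) or control array 2 (0.56). It was also lost with arrays scaled to a common trimmed mean (0.48, limma adjusted p = 0.0527). Pfkm, the muscle-type subunit, had 8.23, 8.45 and 8.47 on RA arrays and 8.70, 8.62 and 8.85 on control arrays. All RA arrays of Pfkm lay lower, but the difference of -0.34 ± 0.12 (SE) did not pass (limma adjusted p = 0.0548). It passed in the same direction with arrays scaled to a common trimmed mean (adjusted p = 0.0398).

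Aldolase and triose phosphate isomerase rose. Aldoa, the ubiquitous aldolase, had log2 levels of 12.06, 11.97 and 11.91 on RA arrays, against 10.83, 10.68 and 10.56 on control arrays, 2.44 times higher with RA. Its 5 probe sets were all called higher, with log2 fold changes from 0.51 to 1.36. Aldoc, the isoform known from brain, was 3.00 times higher with RA (8.26 to 8.53 on RA arrays, 6.66 to 7.09 on control arrays). Tpi1, which interconverts the triose phosphates, was 1.87 times higher, and its 3 probe sets ranged from 0.90 to 1.16. None of the 3 had a limma adjusted p above 3.22e-05.

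Further down the pathway Pgk1, Pgam1 and Pkm rose by similar amounts. Pgk1, which yields the first ATP of the pathway, had log2 levels of 13.09, 12.97 and 12.91 on RA arrays and 11.93, 11.79 and 11.79 on control arrays. It was 2.22 times higher with RA, and its 3 probe sets gave log2 fold changes from 1.15 to 2.49. Pgam1 (phosphoglycerate mutase) was 1.98 times higher and Pkm (pyruvate kinase) 2.05 times, with non-overlapping arrays in both. Several of these enzymes have processed pseudogenes in the mouse, which the probe sets may also read. None of these enzymes had a limma adjusted p above 8.68e-06.

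Eno2, the neuronal enolase, went down. Its log2 levels were 4.57, 5.83 and 4.89 on RA arrays, against 6.51, 6.53 and 6.86 on control arrays, 2.90 times lower with RA (limma adjusted p = 0.00779). The RA mean of 5.10 lay below the filter level of 5.74, so this fold is open to background. It was -0.82 on the log2 scale with a pseudocount of 64 in place of -1.54, and the call was lost with RA array 1 and control array 3 both left out (-1.19).

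Gapdh could be read only from the array's control probe sets, in the deposited signal. The 3-prime one stood at 42.5, 47.0 and 41.4 times the array's trimmed mean on RA arrays, against 38.2, 34.4 and 38.3 times on control arrays. The groups did not overlap (exact permutation p = 0.1, two-sided, the smallest that 3 against 3 arrays allow). The 5-prime one was at 1.25, 15.3 and 8.81 times on RA arrays and 8.69, 11.3 and 8.07 times on control arrays. Its groups overlapped (exact permutation p = 0.9). The middle one was at 10.7, 40.6 and 26.2 times on RA arrays and 25.1, 25.9 and 27.6 times on control arrays, so that RA array 1 lay lowest and RA array 2 highest (exact permutation p = 1).

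The lactate dehydrogenase subunits moved apart. Ldha, the subunit that favours lactate formation, had log2 levels of 12.97, 12.85 and 12.84 on RA arrays, against 11.14, 11.04 and 11.13 on control arrays. It was 3.44 times higher with RA and had the smallest p of the 37 genes (limma adjusted p = 1.05e-08). Ldhb, the heart-type subunit, had 10.73, 10.45 and 10.58 on RA arrays, against 11.08, 11.00 and 10.81 on control arrays. All RA arrays lay lower, by 1.30 times (limma adjusted p = 0.0126), and its 4 probe sets were all called lower, from -0.56 to -0.38. The call of Ldhb was lost without RA array 2 (-0.30) or control array 1 (-0.32). Without scaling its difference was 0.024, of the opposite sign. The call was also lost with arrays scaled to a common trimmed mean (-0.28, limma adjusted p = 0.0662). It was lost in a fit without the eBayes trend as well (limma adjusted p = 0.0832).

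**Figure D2:**
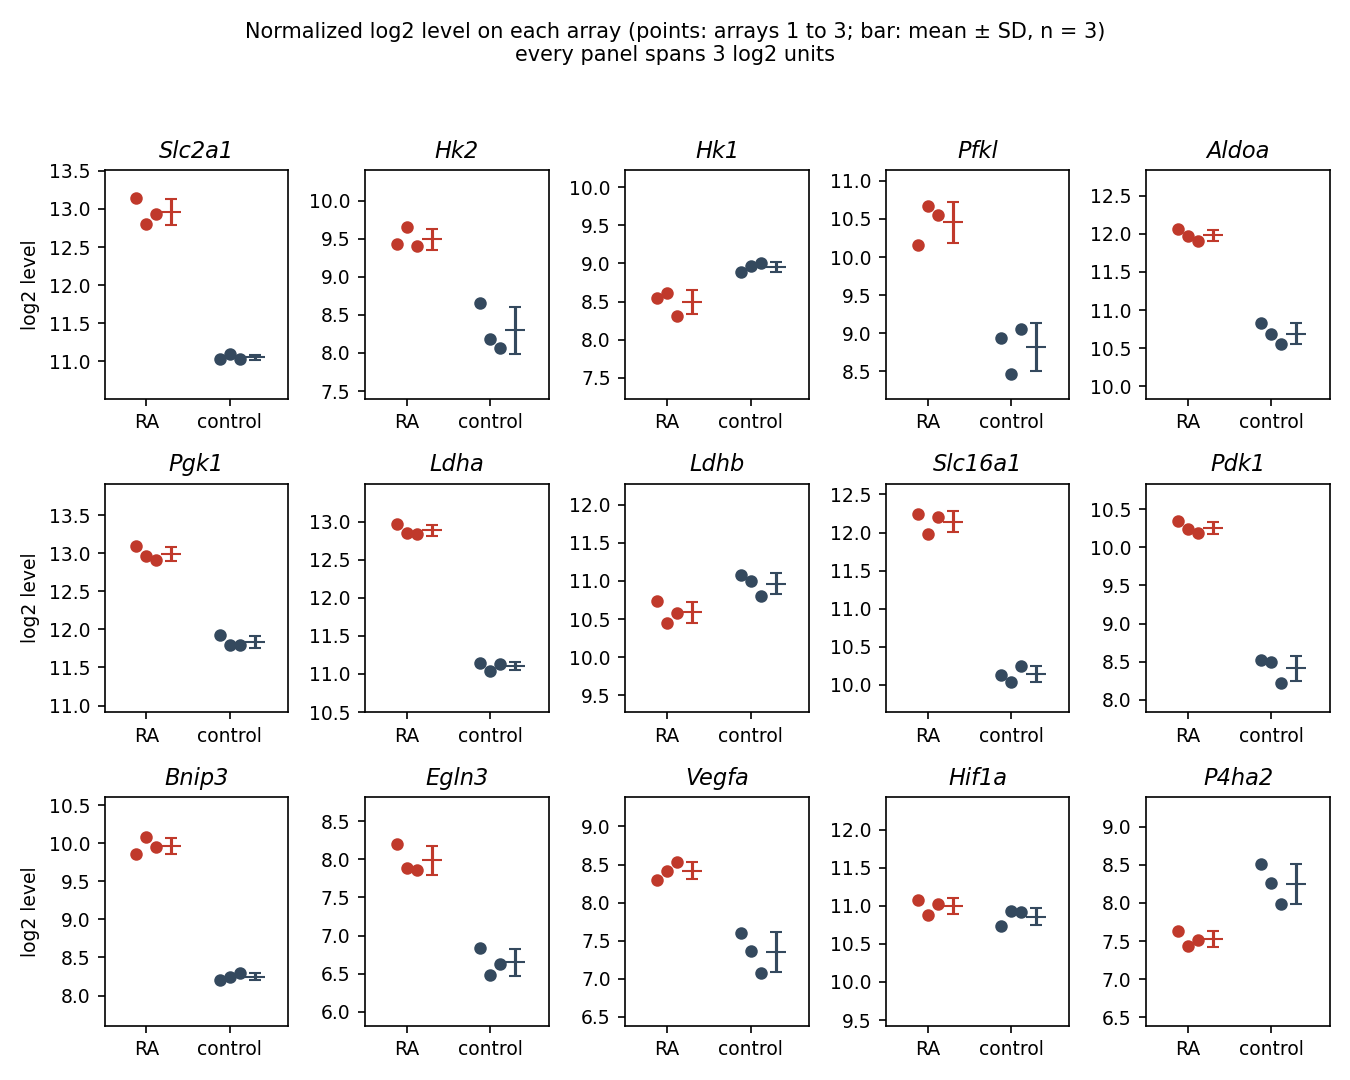
Normalized log2 level of 15 genes on each array, with RA arrays in red at the left and control arrays in dark blue at the right, and the mean ± SD (n = 3) beside the points. Every panel spans 3 log2 units. The groups do not overlap in any of these genes except Hif1a, and Hk1, Ldhb and P4ha2 are the panels with RA lower.

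Pyruvate dehydrogenase kinases block the entry of pyruvate into the citric acid cycle. Pdk1, a HIF target, had log2 levels of 10.34, 10.24 and 10.19 on RA arrays, against 8.52, 8.49 and 8.22 on control arrays. It was 3.59 times higher with RA (limma adjusted p = 2.80e-07). Pdk3 differed by 0.20 ± 0.13 (SE) and did not pass (limma adjusted p = 0.306), although all its RA arrays lay above the control arrays. Pfkfb3 and Pfkfb4, which make the activator of phosphofructokinase, overlapped between groups, with differences of -0.05 ± 0.17 and 0.06 ± 0.22 (limma adjusted p = 0.856 and 0.871).

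Hif1a itself, the regulated subunit, did not pass the test. Its log2 levels were 11.08, 10.88 and 11.02 on RA arrays and 10.73, 10.93 and 10.92 on control arrays. The groups overlapped, and the difference was 0.14 ± 0.09 (SE, limma adjusted p = 0.270). With arrays scaled to a common trimmed mean it was 0.24 and passed (adjusted p = 0.0445). These values are of the brightest probe set of Hif1a, and none of its 3 kept probe sets was called. The second brightest gave 0.37, with all RA arrays above all control arrays (limma adjusted p = 0.0981 over all probe sets kept). The dimmest gave 0.045, with overlapping groups. HIF activity is set mainly by protein stability, which arrays do not measure.

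Of the 3 HIF prolyl hydroxylase genes, Egln3 and Egln1 were higher with RA and Egln2 was lower by 1.40 times (limma adjusted p = 0.00724), a call that was lost without scaling. Egln3, a hydroxylase strongly induced by HIF, had 8.21, 7.89 and 7.86 on RA arrays and 6.83, 6.48 and 6.63 on control arrays, 2.53 times higher with RA (limma adjusted p = 0.000192). Egln1, the main oxygen sensor of the family, was 1.42 times higher (8.53 to 9.03 on RA arrays, 8.14 to 8.40 on control arrays, limma adjusted p = 0.0195). The call of Egln1 was lost without RA array 1 (0.37), control array 2 (0.46) or control array 3 (0.50). It was also lost in a fit without the eBayes trend (limma adjusted p = 0.0597). The other probe set of Egln1 gave 0.26, with overlapping groups, and was not called.

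The 3 HIF targets of mitochondria rose. Bnip3, which directs mitochondria to autophagy, had log2 levels of 9.86, 10.08 and 9.95 on RA arrays, against 8.20, 8.24 and 8.29 on control arrays, 3.29 times higher (limma adjusted p = 3.02e-07). Ak4, a mitochondrial adenylate kinase, was 2.95 times higher, with 8.74 to 9.10 on RA arrays and 7.24 to 7.41 on control arrays. Higd1a, a hypoxia-induced protein of the respiratory chain, was 1.78 times higher at its brightest probe set. Its other 2 probe sets gave -0.06 and -0.07 and were not called, and the mean of all 3 (0.24) did not pass (limma adjusted p = 0.244).

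Among secreted and matrix targets the picture was split. Vegfa, the vascular growth factor, had 8.30, 8.42 and 8.53 on RA arrays, against 7.60, 7.37 and 7.08 on control arrays, 2.10 times higher with RA (limma adjusted p = 0.000442). P4ha1, a catalytic subunit of collagen prolyl hydroxylase, had 8.90, 8.76 and 8.71 on RA arrays and 7.88, 7.69 and 7.65 on control arrays, while P4ha2, the alternative subunit, had 7.63, 7.44 and 7.51 on RA arrays and 8.51, 8.26 and 7.99 on control arrays. P4ha1 was thus 2.07 times higher (limma adjusted p = 8.43e-05) and P4ha2 1.65 times lower with RA (limma adjusted p = 0.00525), without overlap in either. The call of P4ha2 was lost without scaling (-0.52), and the mean of both P4ha1 probe sets gave 0.64 in place of 1.05. The dimmer P4ha1 probe set gave 0.23, with overlapping groups, and was not called. Adm (adrenomedullin) and Car9 (a carbonic anhydrase strongly induced by HIF) overlapped between groups, with differences of -0.12 ± 0.25 and -0.08 ± 0.30 (SE). The mean levels of Car9, 5.91 with RA and 5.99 in controls, lay just above the filter level of 5.74.

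The other 4 HIF targets rose. Ankrd37, an ankyrin repeat protein, had 7.83, 7.86 and 7.44 on RA arrays, against 5.37, 6.75 and 6.76 on control arrays, 2.67 times higher (limma adjusted p = 0.00786). Control array 1 lay lowest, and without it the log2 fold change was 0.93 in place of 1.41. Ddit4 (REDD1), an inhibitor of mTOR signalling, was 1.84 times higher, Ndrg1 1.66 times and Mxi1, a MYC antagonist, 1.45 times. Each of these 3 had a limma adjusted p of 0.00648 or lower. Of the 3 probe sets of Ndrg1 that passed the filter, 2 were called higher, and the other gave 0.15 with overlapping groups.

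Isoforms were compared through the ratio of 2 isoforms on the same array, which shows unequal change but not which isoform is the more abundant. Of 14 pairs 12 could be formed, Eno2 with Eno1 and Bnip3l with Bnip3 being the pairs left out. The phosphofructokinase pairs share genes, so the pairs are not independent. In 9 of the 12 the RA and control arrays did not overlap. The share among arbitrary gene pairs was not computed, and of all single genes 21.8% lay wholly above and 22.2% wholly below with RA. The exact two-sided permutation p of these 9 pairs was 0.1, the smallest possible, and 0.133 after Benjamini-Hochberg adjustment over the 12 pairs, so that none passed a threshold of 0.05. The ratio of Ldhb to Ldha was 4.46 times lower with RA (difference in log2 ratio -2.16 ± 0.10, SE). The ratio of Pfkm to Pfkl was 3.93 times lower (-1.97 ± 0.15), that of P4ha2 to P4ha1 3.43 times lower (-1.78 ± 0.10) and that of Pdk3 to Pdk1 3.13 times lower (-1.65 ± 0.16). The ratio of Hk2 to Hk1 was 3.16 times higher (1.66 ± 0.22). Over the alternatives tried, the Pfkm to Pfkl difference ran from -2.12 to -1.35. That of P4ha2 to P4ha1 ran from -1.90 to -1.37, and that of Pdk3 to Pdk1 from -1.79 to -1.21.

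Smaller shifts in ratio without overlap were found for Pfkp to Pfkl (-1.09 ± 0.28), Slc2a3 to Slc2a1 (-1.06 ± 0.12), Pfkp to Pfkm (0.89 ± 0.15) and Egln3 to Egln1 (0.83 ± 0.06). With the mean of all probe sets the Pfkp to Pfkl difference was -0.46. In the other 3 pairs the arrays overlapped: Slc16a3 to Slc16a1 differed by -0.49 ± 0.26 (exact permutation p = 0.2), Aldoc to Aldoa by 0.29 ± 0.18 (exact permutation p = 0.2) and Pfkfb4 to Pfkfb3 by 0.11 ± 0.24 (exact permutation p = 0.7). The Slc16a3 to Slc16a1 difference was -0.30 without control array 2 and -0.19 with the mean of all probe sets, the smallest size among the alternatives tried. The Aldoc to Aldoa difference was 0.46 with the mean of all probe sets and 0.0024 with a pseudocount of 64. Without control array 1 the Aldoc to Aldoa difference was 0.10 and the Pfkfb4 to Pfkfb3 difference -0.078, and without control array 3 the last was 0.33.

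**Figure D3:**
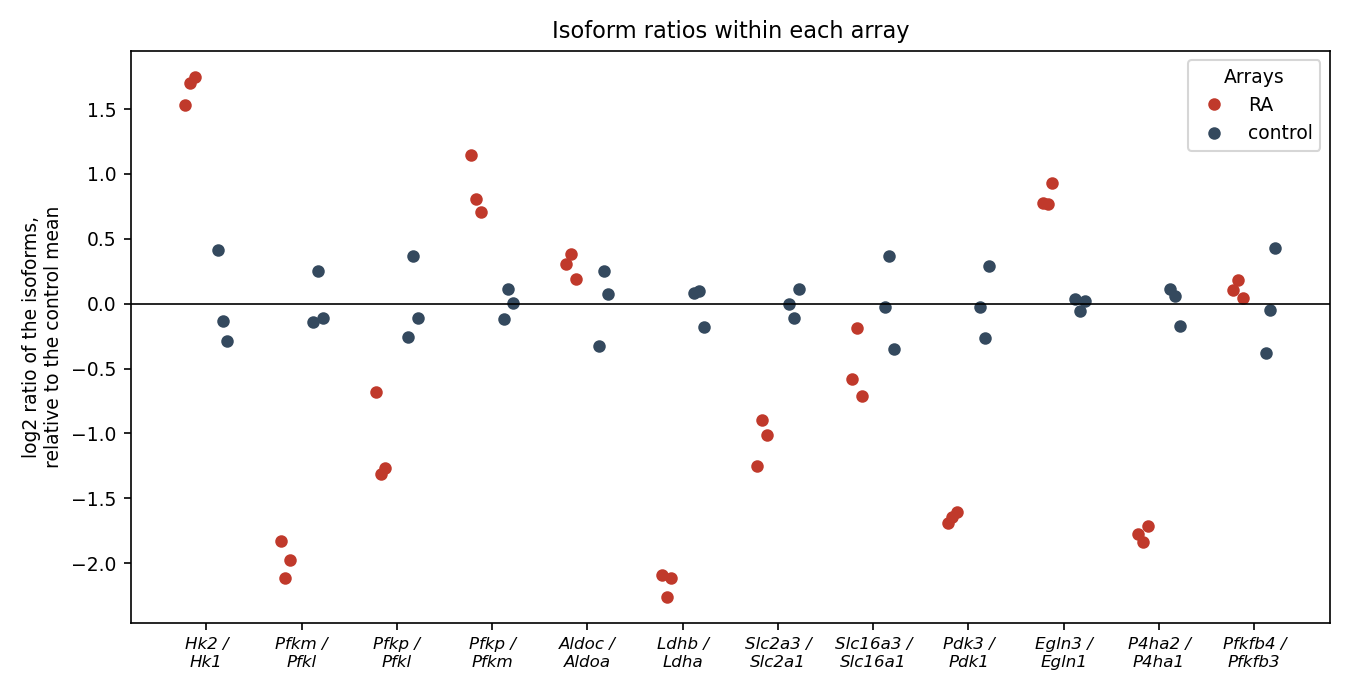
Log2 ratio of the signals of 2 isoforms on each array, minus the mean of the 3 control arrays for that pair, with RA arrays in red left of control arrays in dark blue. RA points of Hk2 to Hk1 sit highest above 0, and those of Ldhb to Ldha and Pfkm to Pfkl sit about 2 log2 units below it.

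The genes called higher were spread over 15 chromosomes. Chromosome 11, whose 1119 genes had a median log2 fold change of -0.20 with 6.43% called higher and 28.6% called lower, holds Aldoc and Slc16a3, both higher with RA, and P4ha2, which was lower.

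Over all probe sets, 70 of the 83 named for the 37 genes passed the filter, of which 45 were higher and 7 lower with RA, against 11.3% and 11.1% of all 27022 probe sets kept. In none of the 19 genes with several kept probe sets did 2 of them pass in opposite directions, and in 10 of these 19 all passed in the same direction.

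Neighbouring pathways were examined in 5 further lists. In the list of other glycolytic and gluconeogenic genes, which holds tissue-restricted isoforms, 1 of 18 tested was higher (5.56%, beside 14.3% of all genes). In the same list 2 were lower (11.1%, beside 15.6% of all genes), with a median of -0.18. Another 9 lay below the filter level in both groups, among them Pgam2, Ldhd and Slc2a2. Hkdc1, a hexokinase-like enzyme, was 1.63 times higher with RA, Eno3, the muscle enolase, 1.36 times lower and Slc2a4, the insulin-responsive glucose carrier of muscle and fat, 2.21 times lower (limma adjusted p = 0.0185, 0.0265 and 0.0115). Without RA array 2 this list had 0 genes higher and 1 lower, without control array 1 it had 1 lower, and without control array 3 it had 0 lower.

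Of 11 genes of pyruvate entry into mitochondria, 1 was higher (9.09%, beside 14.3% of all genes) and 2 were lower (18.2%, beside 15.6% of all genes), with a median of -0.14. Mpc1, a subunit of the mitochondrial pyruvate carrier, had log2 levels of 6.08, 6.43 and 6.22 on RA arrays, against 8.10, 8.17 and 7.89 on control arrays. All RA arrays lay well below the controls, 3.51 times lower (limma adjusted p = 2.41e-05). Pdk2, a kinase of pyruvate dehydrogenase, was 2.30 times lower (limma adjusted p = 0.00798), and Pdha1, a subunit of pyruvate dehydrogenase, 1.27 times higher (limma adjusted p = 0.0142). Without RA array 1, 0 genes of the list were higher.

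Of 7 pentose phosphate genes tested 3 were higher (42.9%, beside 14.3% of all genes) and 2 lower (28.6%, beside 15.6%; median 0.35). Pgd, which makes NADPH, was 1.75 times higher with RA, Taldo1 (transaldolase) 1.48 times and Tkt (transketolase) 1.30 times. H6pd, the enzyme of the endoplasmic reticulum, was 2.47 times lower and Pgls 1.51 times lower. The limma adjusted p of the 5 genes ran from 2.94e-05 to 0.0231. Without control array 1 or control array 3, 1 gene of the list was lower.

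Of 13 genes of oxygen sensing and HIF regulation, 6 were higher (46.2%, beside 14.3% of all genes). In this list 1 gene was lower (7.69%, beside 15.6% of all genes), and the changes were small (median 0.10). Cited2, a HIF-induced inhibitor of HIF, was 1.45 times higher with RA, Epas1, which encodes the HIF-2 alpha subunit, 1.26 times, Cul2 1.33 times and Ep300 1.29 times. The gene called lower was Egln2. Crebbp was 1.26 times higher and Eloc 1.16 times, and the limma adjusted p of the 7 called genes ran from 0.000443 to 0.0426. The count of 6 fell to 3 without RA array 1, RA array 2, control array 2 or control array 3, and to 1 without RA array 3 or without scaling.

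In the list of other HIF targets 7 of 30 genes tested were higher (23.3%, beside 14.3% of all genes). In this list 1 gene was lower (3.33%, beside 15.6% of all genes), and the median was 0.21. Stc2 (stanniocalcin), Kdm4c and Kdm3a (histone demethylases), Ero1a (listed under its older symbol Ero1l, an oxidase of the endoplasmic reticulum), Mif and Fam162a were between 1.34 and 2.42 times higher with RA, and Jmjd6 1.32 times. Txnip, an inhibitor of glucose uptake, had 8.02, 8.53 and 8.24 on RA arrays, against 9.09, 9.31 and 9.66 on control arrays, 2.13 times lower with RA (limma adjusted p = 0.000441). The limma adjusted p of the 7 higher genes ran from 0.000259 to 0.0105. Without RA array 1, 2 genes of this list were lower.

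**Figure D4:**
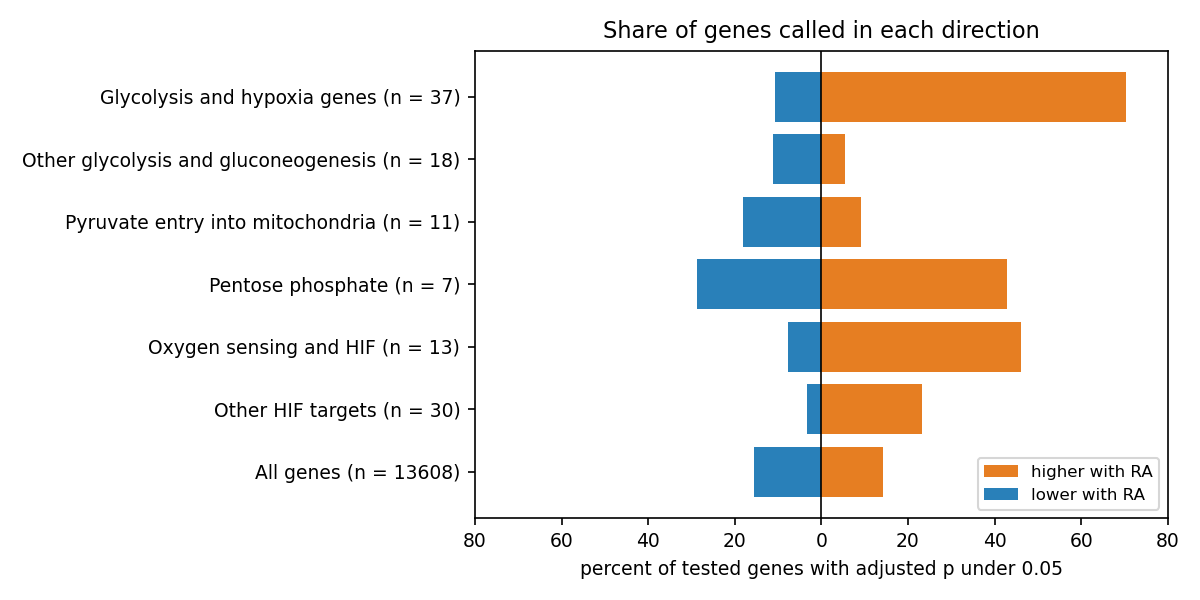
Percent of tested genes called higher (right) and lower (left) with RA for the glycolysis and hypoxia genes, the 5 neighbouring lists and, in the last row, all 13608 genes. The 37 glycolysis and hypoxia genes had 70.3% higher, against 14.3% of all genes, while the other HIF targets had 23.3% higher.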

How the data were processed

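Per the labels, total RNA was labelled with biotin and read on 1 Affymetrix array per sample, and the submitters' processing notes name GCOS at default settings, with no version. The authors deposited a linear intensity for each of 45101 probe sets, not scaled between arrays. Here log2(intensity + 16) was quantile normalized over the 6 arrays without the 64 control probe sets, and the 27022 probe sets whose mean exceeded the 40th percentile, 5.74 on the log2 scale, were retained. Fold changes of dim genes are understated by the pseudocount of 16. The platform annotation gave a single symbol for 34945 probe sets, several for 932 and none for 9160. The brightest retained single-symbol probe set stood for its gene.

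RA minus control was fitted in limma 3.58.1 under R 4.3.3 (lmFit, then eBayes with trend, two-sided, without covariates), adjusted over 13608 genes by Benjamini-Hochberg, threshold 0.05. A replicate block, other scalings, pseudocounts, filters and probe set choices, and fits without single arrays were alternatives. All 41 genes are named, as are up to 6 called genes of each neighbouring list and 3 of a marker list. Eloc, Kdm3a, Jmjd6, Pgam2, Ldhd and Slc2a2 fall outside this rule and were chosen after their values were seen. The same holds for the markers Ttr, Afp, Gap43, Snap25, Map2, Elavl3, Rbfox3, Hba-a1 and Pecam1. The genes and lists were chosen with earlier results of these data known. The procedure was tested on simulated data. The number of arrays limits precision.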

Additional observations from a re-analysis of the deposited data

Results flagged for a closer look

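The Gapdh 3-prime to 5-prime ratio of the array's control probe sets was 34.0 on RA array 1, above the 3.06 to 4.74 of the control arrays. These probe sets are no part of the main comparison. The actin ratio was 7.42, 4.35 and 4.90 on RA arrays 1, 2 and 3, against 3.46, 3.35 and 4.24 on control arrays 1, 2 and 3 (exact permutation p = 0.1, the smallest possible). Without RA array 1, Slc2a1, Ldha, Slc16a1, Pdk1 and Bnip3 were called higher as with all arrays, and the calls of Pfkp and Egln1 were lost.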

How the results depend on the processing

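Of the 37 genes tested, 28 kept their direction where called and their side of the threshold under every alternative that could test them, of 16 tried, and the others were Hk1, Pfkm, Pfkp, Eno2, Ldhb, Hif1a, Egln1, Higd1a and P4ha2. The count of higher genes was 24 to 26 and that of lower genes 3 to 4 when each array was left out in turn. Without scaling, 1 of the 37 genes and 1 of their probe sets were lower, 651 of all genes were lower, and the difference of Ldhb was 0.024. The Pfkfb4 to Pfkfb3 difference was 0.11 with all arrays, -0.022 with the mean of all probe sets, and -0.078 to 0.33 when each array was left out in turn, the lowest without control array 1. The cause of these changes was not tested. With the replicate block, 25 genes were higher and 4 lower, 1775 and 1949 over all genes, and the call of Pfkp was lost (limma adjusted p = 0.0515), while 3 instead of 6 oxygen sensing genes were higher. The deviations of same-numbered arrays correlated at -0.09, -0.01 and -0.03. The labels do not say whether same-numbered arrays share more than a number, and these values cannot decide it. Genes near the filter level, such as Eno2 and Car9, are limited by their signal over background.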
